A study of Mus musculus with 19 samples.

Results

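CD8 T cells that had been activated, transduced with GFP and expanded in culture were set against naive CD8 T cells that carried the same transgenic receptor. The comparison used 2 GFP libraries and 3 naive libraries, 5 of the 19 RNA-seq libraries of the study. They were picked out by their titles, with earlier results of these data known. All 5 came from C57BL/6 mice with the TCR SV40-I transgene, a rearranged T cell receptor for an epitope of the SV40 large T antigen. For the GFP group, naive SV40-I CD8 T cells received antibodies to CD3 and CD28, a retrovirus whose only insert was GFP, and IL-2 during expansion in vitro, and were then sorted as CD8+ GFP+. Cells of the naive group were sorted as CD8+ with low CD44, a surface glycoprotein that marks earlier activation, and the labels describe no culture for them. Levels in the other 14 libraries are given beside some results: 2 libraries of cells transduced with TOX and GFP in the same type of culture, and 12 libraries of cells from malignant liver lesions in 4 groups of 3. Those groups are SV40-I cells and OT-I cells (a receptor for chicken ovalbumin) of days 20 to 21, and SV40-I cells of days 8 to 9 sorted as high or as low for PD1, LAG3 and CD39, called marker-high and marker-low here. The source label of every library names splenocytes, also for the lesion groups, and the count columns of the marker-low libraries are headed KO where those of the marker-high libraries are headed WT.

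A naive CD8 T cell circulates between blood and lymph nodes in a resting state that factors such as TCF1 and LEF1 maintain. Signals through its receptor and CD28 start growth, glycolysis and division, and IL-2, acting through STAT5, then sustains expansion and the loading of the cell with granzymes. Cells grown in IL-2 after such a stimulus are widely used as a model of an effector cell. The GFP and naive groups differ in activation, in culture with IL-2, in transduction, in the sort and, as the transcripts below show, in sex, and the parts of these cannot be told apart. The labels do not say how long the culture lasted, or whether replicates came from separate animals or cultures, and the p-values can speak only for the spread among these libraries, which may be technical.

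Library totals were 44342549 and 45865596 counts for GFP cells and 51599398, 45642986 and 45818362 counts for naive cells, and the limit that a count of 0 allows, 3 counts, was 0.0535 to 0.0718 CPM (normalised counts scaled to library size), covering counting error only. Mitochondrial genes took 0.382% and 0.504% of the counts in GFP libraries, against 0.227%, 0.307% and 0.199% in naive libraries. Ribosomal protein genes took 3.39% and 3.27% in GFP libraries and 3.21%, 5.63% and 2.53% in naive libraries, naive 2 being the highest of the 5. The GFP pair was the closer: 88 genes (1.13% of 7765 genes at 10 CPM or more) lay over 2-fold apart within it, against 333 to 848 genes (5.02% to 12.8% of 6637) within the naive pairs, most between naive 2 and naive 3. In bulk RNA, fewer cells of a type and less RNA per cell cannot be told apart.

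Transcripts of the T cell receptor complex marked both groups as CD8 T cells. Cd3e, which encodes a signalling chain of the receptor, had 642 and 475 CPM in GFP libraries, against 3538, 3756 and 3622 CPM in naive libraries. Cd8a, which encodes the CD8 coreceptor, had 1529 and 1692 CPM in GFP libraries, against 3784, 3829.8 and 3258 CPM in naive libraries. Cd4 lay at 1.58 and 2.32 CPM in GFP libraries, against 2.61, 1.08 and 1.28 CPM in naive libraries, and did not differ beyond the spread (adjusted p = 0.774, edgeR quasi-likelihood test with Benjamini-Hochberg adjustment, as throughout). Cd44, whose protein set the naive gate, had 26.5 and 23.5 CPM in GFP libraries, against 11.2, 0.934 and 6.30 CPM in naive libraries. Both GFP libraries were above every naive library, with naive 2 lowest, yet the gene was not called (log2 fold 2.04, adjusted p = 0.0962), and was called with DESeq2 (0.0311), in the fit of all 19 libraries (0.0173), without naive 1 (0.0474) and without naive 2 (0.0248). Tox, the factor that the study overexpressed in its other cultured group, had 11.1 and 17.5 CPM in GFP libraries, against 99.2, 98.7 and 131 CPM in naive libraries, and the groups did not overlap (log2 fold -2.93 ± 0.30, adjusted p = 0.000786). The ± of a log2 fold is an approximate standard error throughout.

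Markers of macrophages, B cells, dendritic cells, erythroid cells and hepatocytes were present in naive libraries and were scarcer in GFP libraries, neutrophil sums overlapped, and the sums of NK cell and CD4 T cell markers were higher in GFP libraries. The 10 macrophage and monocyte markers summed to 3.27 and 3.96 CPM in GFP libraries, against 284, 138 and 104 CPM in naive libraries. They gave 0 higher, 8 lower and 1 not called of 9 tested among 10 members, with a median log2 fold of -7.69 (-5.67 with genes at 0 in a group set to their bound), where 24.9% of all 14911 tested genes were called higher and 20.1% lower. Ms4a1, which encodes CD20, had no counts in either GFP library, against 11.9, 6.58 and 5.80 CPM in naive libraries. The B cell markers as a whole gave 0 higher, 7 lower and 2 not called of 9 tested among 10 members, with a median log2 fold of -4.67. Most of their sum was Ighm, with 549 and 627 CPM in GFP libraries, against 3077, 2867 and 2816 CPM in naive libraries. Dendritic cell markers gave 0 higher, 3 lower and 5 not called of 8 tested among 10 members, with a median log2 fold of -4.37 (-4.30 with genes at 0 in a group set to their bound). Their sum was 49.1 and 29.1 CPM in GFP and 919, 524 and 299 CPM in naive libraries, and the largest part of the naive sum was Cd74, the invariant chain of MHC class II. Erythroid and platelet markers gave 0 higher, 7 lower and 2 not called of 9, with a median log2 fold of -8.52 (-7.46 with genes at 0 in a group set to their bound), and summed to 0.0908 and 0.678 CPM in GFP and 323, 59.3 and 36.3 CPM in naive libraries. Neutrophil markers gave 0 higher, 2 lower and 5 not called of 7 tested among 9 members, with a median log2 fold of -1.93 (sums of 8.03 and 7.71 CPM in GFP and 55.1, 19.4 and 6.46 CPM in naive libraries). Hepatocyte markers gave 0 higher, 3 lower and 3 not called of 6 tested among 10 members, with a median log2 fold of -5.46 (-3.83 with genes at 0 in a group set to their bound), and their sums stayed at 0.291 and 0.393 CPM in GFP and 7.64, 4.21 and 3.36 CPM in naive libraries. Endothelial and stromal markers gave 0 higher, 3 lower and 1 not called of 4 tested among 10 members, with a median log2 fold of -3.87. Cdh5, Tek and Pdgfra had no counts in any of the 5 libraries. The sums of 30.4 and 28.0 CPM in GFP and 314, 237 and 392 CPM in naive libraries were almost wholly Pecam1, which naive T cells also express. NK cell markers gave 1 higher, 3 lower and 1 not called of 5 tested among 6 members, with a median log2 fold of -2.73. Their sum was 36.7 and 32.7 CPM in GFP and 24.7, 24.6 and 11.04 CPM in naive libraries, most of it in GFP cells being Eomes, which effector T cells also express, with Ncr1, an NK cell receptor, at no counts in GFP cells and 0.842, 1.32 and 0.265 CPM in naive cells. The CD4 T cell markers gave 1 higher, 0 lower and 3 not called of 4, with a median log2 fold of 1.44. Their sum was 25.9 and 15.4 CPM in GFP and 7.06, 3.28 and 2.08 CPM in naive libraries, most of it in GFP cells being Zbtb7b, a factor of the CD4 lineage. Cd4 itself, given above, overlapped between the groups and was not called. Among naive libraries, naive 1 held the most of the macrophage, dendritic and erythroid transcripts, and the part of these other cells in the results was not tested. The call of Ncr1 was lost without GFP 1 (adjusted p = 0.0722) and without GFP 2 (0.0773). Leaving out 1 library moved the log2 fold of Cd74 to -7.12 without GFP 1 and Zbtb7b to 3.42 without GFP 1. The dendritic cell list had 5 lower calls without naive 2 and 6 with DESeq2. The erythroid and platelet list had 2 lower calls without GFP 1 and 3 without GFP 2. The neutrophil list had 2 higher calls without naive 1. It had 4 lower calls without naive 3. The hepatocyte list had 1 lower call in the fit of all 19 libraries, 1 without GFP 1 and 1 without GFP 2. The endothelial and stromal list had 1 lower call in the fit of all 19 libraries. The NK cell list had 1 lower call without GFP 1 and 1 without GFP 2. The macrophage and monocyte list median was -6.65 without GFP 1 and -6.47 without GFP 2. The B cell list median was -6.90 without GFP 1 and -6.56 without GFP 2. The dendritic cell list median was -3.07 without naive 1, -3.54 without naive 3 and -6.81 without GFP 2. The erythroid and platelet list median was -6.75 without naive 1 and -9.55 without GFP 2. The neutrophil list median was 0.21 without naive 1 and -1.12 without GFP 2. The hepatocyte list median was -4.84 without naive 2 and -6.90 without GFP 2. The endothelial and stromal list median was -6.36 without GFP 1. The NK cell list median was 5.33 with the stricter filter, which tested fewer members and left 1 higher and 0 lower calls. The CD4 T cell list median was 2.24 without naive 1.

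**Figure D1:**
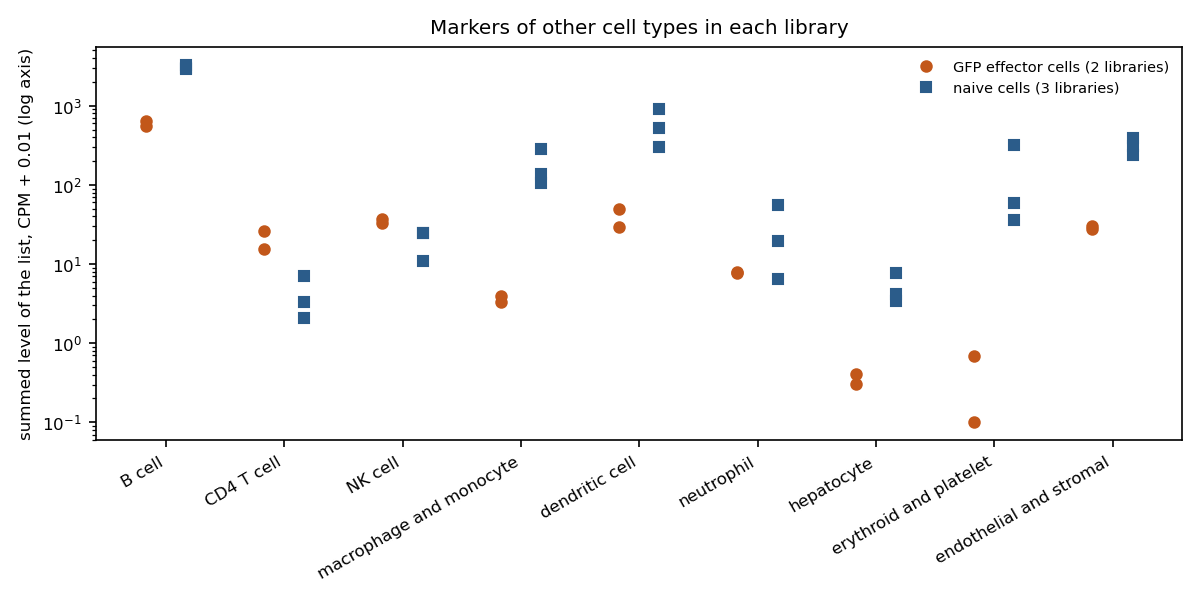
Summed level of the markers of each other cell type (CPM + 0.01, log axis) in every library, with GFP libraries as circles left of naive libraries as squares; each point is 1 library. The macrophage, hepatocyte and erythroid sums lie lower in both GFP libraries than in any naive library, while the CD4 T cell and NK cell sums lie higher.

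Sex-linked transcripts separated the groups completely. Xist, the RNA that coats the inactive X chromosome, had 58.1 and 79.0 CPM in GFP libraries, against 0, 0 and 0 CPM in naive libraries, at least 3104-fold higher in GFP cells. Kdm5d, a demethylase encoded on the Y chromosome, had no counts in GFP libraries and 13.6, 14.96 and 40.0 CPM in naive libraries, and Ddx3y, a Y-linked RNA helicase, had 0.0182 and 0.0357 CPM in GFP libraries, against 10.1, 7.57 and 11.1 CPM in naive libraries. Of the 6 sex-linked genes, 2 (Xist and its antisense partner Tsix, whose reads cannot be told apart without strand) were higher and 4 were lower. Reads of a female and a male pattern thus coincided with the groups. The call of Tsix was lost in the fit of all 19 libraries (adjusted p = 0.0728), without GFP 1 (0.192), without GFP 2 (0.187) and with DESeq2 (0.0618).

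Between GFP and naive cells, 14911 of 53656 listed genes were tested: 3714 (24.9%) were higher in GFP cells, 3003 (20.1%) were lower and 8194 were not called at an adjusted p under 0.05. By a test against a 2-fold change, 2515 (16.9%) were higher and 1446 (9.7%) lower. The median log2 fold of all tested genes was 0.01. Of all calls, 55.3% were higher (63.5% in the test against 2-fold). Scaling by library totals alone moved the median to 0.38 and these shares to 67.6% and 76.4%. Genes called higher had a median transcript GC content of 47.4% and genes called lower 52.5% (a transcript was found for 90.6% and 87.9%), and the part of GC content in the calls was not tested. With 1 GFP library left, fewer genes passed: 2208 higher and 1558 lower without GFP 1, and 1916 higher and 1475 lower without GFP 2.

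**Figure D2:**
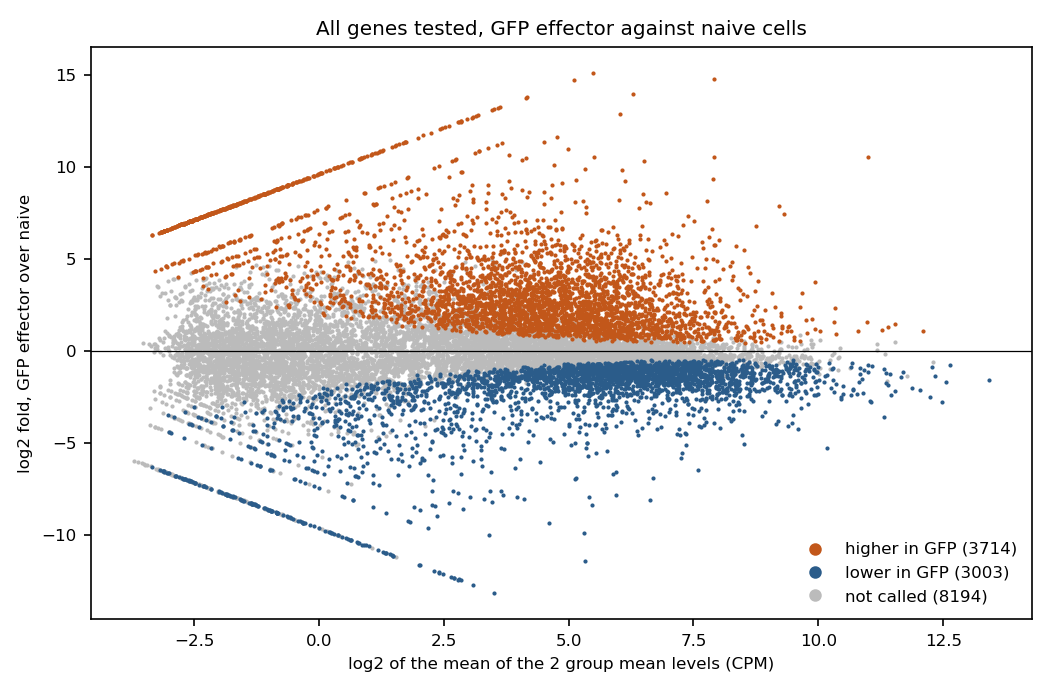
Log2 fold of GFP over naive cells against the mean level (log2 CPM) of the 14911 tested genes; each point is 1 gene, coloured by its call, 3714 higher and 3003 lower. The straight outer lines are genes with few or no counts in 1 group, whose fitted fold depends on a small added count.

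The 10 largest rises among well-expressed genes were Kif11, Lrrc32, Xist, Gpt2, RP23-273G4.1, Ltb4r1, Vegfa, Esco2, Ak4 and Bub1. Kif11, a kinesin that separates spindle poles, had 82.3 and 96.4 CPM in GFP libraries, against 0, 0 and 0 CPM in naive libraries, at least 4044-fold higher. Lrrc32, which encodes GARP, a surface anchor of latent TGF-β, had 516 and 448 CPM in GFP libraries, against 0, 0.0239 and 0.0221 CPM in naive libraries, a ratio of 32670.0 (95% interval 9044 to 269780.0). Gpt2, a mitochondrial alanine transaminase, had 138 and 177 CPM in GFP libraries, against 0.0205, 0 and 0 CPM in naive libraries, a ratio of 21343 (95% interval 3830.2 to 843070.0). Naive libraries thus held almost no reads of these genes. The other bounds were at least 1623-fold for RP23-273G4.1, 1598-fold for the leukotriene B4 receptor gene Ltb4r1, 1081-fold for the cohesin acetyltransferase gene Esco2 and 1026-fold for the adenylate kinase gene Ak4. The largest falls included Kdm5d, Ighg2c, Clu, Slc4a1, Ramp3, Spib, Ly6d, Scg5 and Lbp, with no counts in the GFP libraries: naive cells were at least 397-fold (Lbp) to 844-fold (Kdm5d) higher. Spib, Ly6d and Ighg2c are genes of B-lineage or related cells and Slc4a1 is an erythrocyte gene, and the lower other-cell sums given above were in the same libraries. Ighg2c rested on naive 2 (5.15, 44.7 and 0.995 CPM in naive 1, 2 and 3), and Clu (34.1, 3.74 and 4.98 CPM) and Slc4a1 (39.5, 0.431 and 1.95 CPM) on naive 1. The call of Ighg2c was lost in the fit of all 19 libraries (adjusted p = 0.0797), without GFP 1 (0.0996) and without GFP 2 (0.106). The call of Slc4a1 was lost without GFP 1 (adjusted p = 0.148) and without GFP 2 (0.154).

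Per length, the most abundant genes called higher were Gzmb, Ldha, Eif5a, Aldoa, Pfn1, Mif, Pkm, Ltb, Lgals1 and Ly6a. Gzmb, the protease that granules deliver into target cells, averaged 2818 RPKM in GFP and 1.90 RPKM in naive cells. Ldha, which turns pyruvate to lactate, averaged 1793 RPKM in GFP and 851 RPKM in naive cells. Eif5a, a translation factor, averaged 1256 RPKM in GFP and 428 RPKM in naive cells. Aldoa and Pkm, 2 glycolytic enzymes, averaged 1168 RPKM in GFP and 538 RPKM in naive cells and 880.3 RPKM in GFP and 313 RPKM in naive cells. Of the rest, the actin-binding Pfn1 averaged 1010.0 RPKM in GFP and 472 RPKM in naive cells, and the cytokine gene Mif averaged 942 RPKM in GFP and 288 RPKM in naive cells. Lgals1, a galectin of activated T cells, averaged 751 RPKM in GFP and 93.5 RPKM in naive cells, and the surface antigen gene Ly6a averaged 724 RPKM in GFP and 301 RPKM in naive cells. The level of Gzmb thus stood apart in the size of its rise, while the others were well expressed in naive cells too. The call of Pfn1 was lost in the fit of all 19 libraries (adjusted p = 0.0967), without GFP 1 (0.183) and without GFP 2 (0.115). The call of Mif was lost without GFP 1 (adjusted p = 0.0991) and without GFP 2 (0.0612). The call of Ly6a was lost in the fit of all 19 libraries (adjusted p = 0.0724), without naive 1 (0.0597), without naive 3 (0.0509), without GFP 1 (0.192) and without GFP 2 (0.108). Without 1 library the log2 fold moved for Lgals1 to 3.69 without naive 2.

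**Figure D3:**
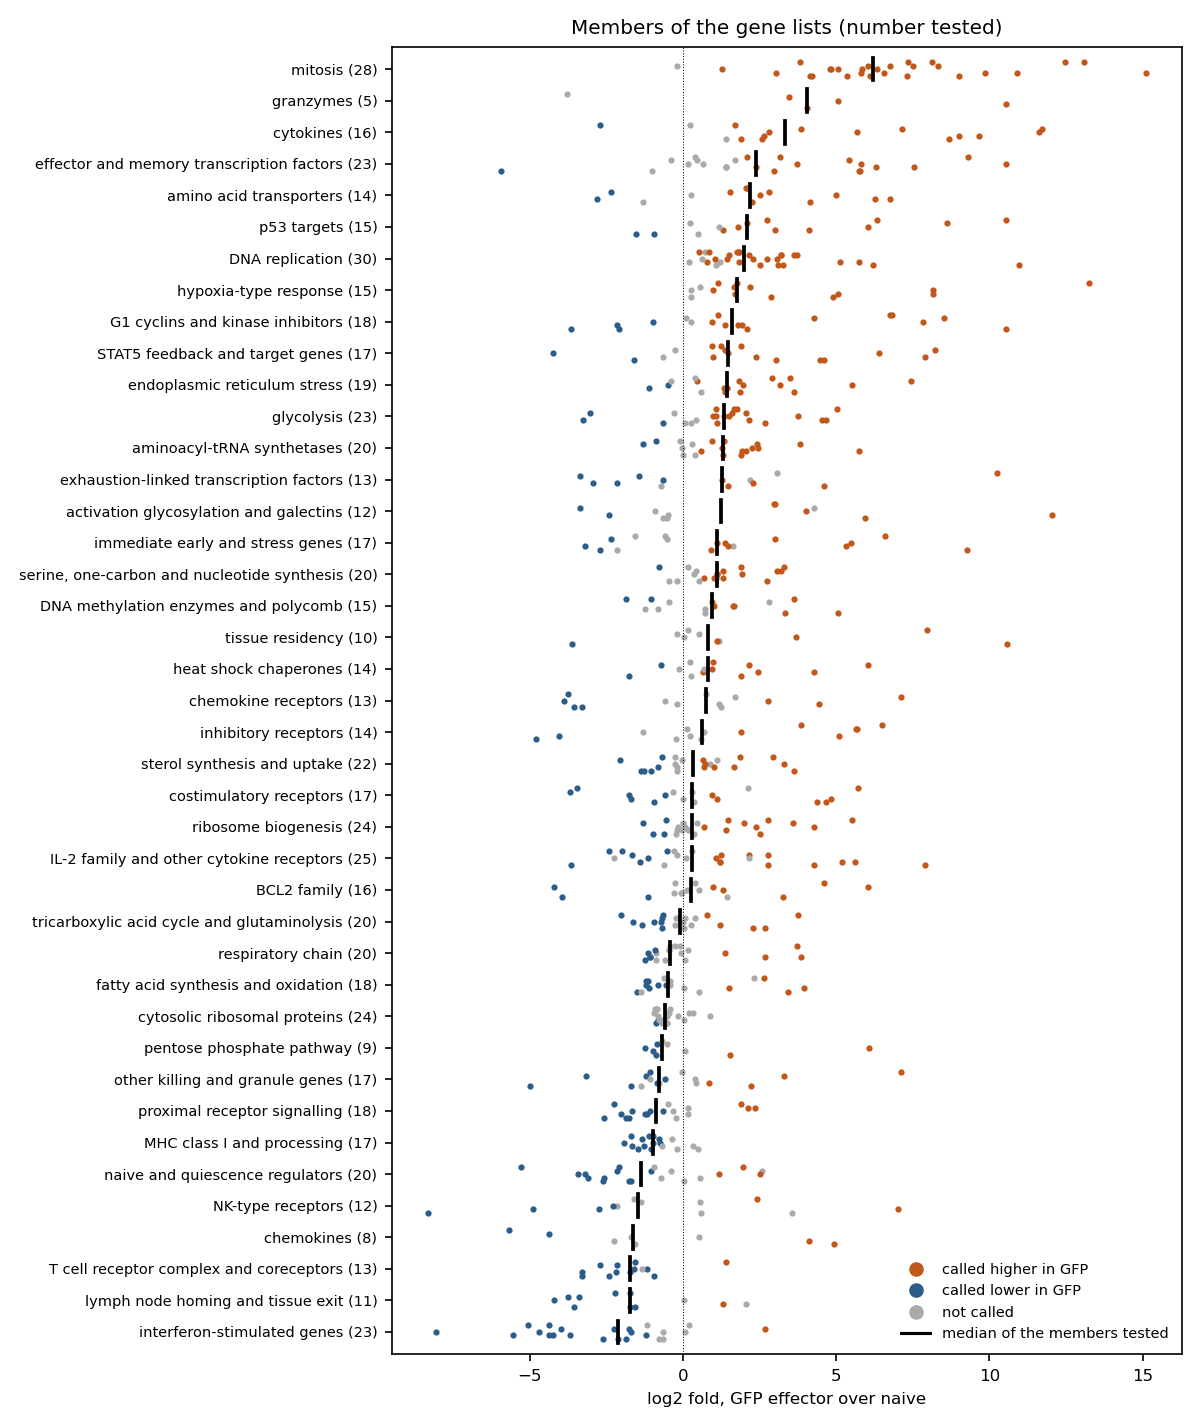
Log2 fold of GFP over naive cells for the tested members of each gene list, leaving out the markers of other cell types and the sex-linked genes. Each point is 1 gene coloured by its call and the bar is the median, with the number tested in brackets. Mitosis genes (median 6.22) stand at the top and interferon-stimulated genes (median -2.13) at the bottom.

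Genes that hold naive T cells at rest were mostly lower in GFP cells, but not all of them. Naive and quiescence regulators gave 3 higher, 11 lower and 6 not called of 20, with a median log2 fold of -1.36. Tcf7, which encodes TCF1, had 232 and 229 CPM in GFP libraries, against 1388, 1212 and 1534 CPM in naive libraries (log2 fold -2.57 ± 0.17, adjusted p = 0.000241). Lef1, which encodes LEF1, had 152 and 183 CPM in GFP libraries, against 1511, 1303 and 1499 CPM in naive libraries (log2 fold -3.09, adjusted p = 0.000190). The groups did not overlap for either gene, and both were still transcribed in culture. Tsc22d3, the glucocorticoid-induced leucine zipper, fell furthest of the list, to 44.3 and 71.0 CPM in GFP libraries, against 1986, 2248 and 2485 CPM in naive libraries (log2 fold -5.27, adjusted p = 0.000195). Btg2, an antiproliferative gene, Slfn2, which protects T cell quiescence, and Cdkn1b and Cdkn2d, which encode the kinase inhibitors p27 and p19, fell by 3.20, 2.61, 2.14 and 2.07 on the log2 scale. Satb1, a genome organiser of T cells, went the other way, with 224 and 231 CPM in GFP libraries, against 61.1, 54.2 and 62.7 CPM in naive libraries (log2 fold 1.95 ± 0.16, adjusted p = 0.000376). So did Foxp1 (log2 fold 1.18, adjusted p = 0.0127), a factor that restrains activation of naive cells, and Tob1 (log2 fold 2.52, at 8.21 and 9.10 CPM in GFP cells). Klf2, with 10.4 and 14.0 CPM in GFP libraries, against 19.8, 36.9 and 13.3 CPM in naive libraries, and Foxo1, with 28.2 and 25.2 CPM in GFP libraries, against 34.6, 41.4 and 55.0 CPM in naive libraries, both regulators of naive cell traffic, were not called. The call of Foxp1 was lost in the fit of all 19 libraries (adjusted p = 0.0804), without GFP 1 (0.0536) and without GFP 2 (0.0890). The call of Tob1 was lost in the fit of all 19 libraries (adjusted p = 0.0582), without GFP 1 (0.0591) and without GFP 2 (0.0771). Klf2 was called without naive 3 (adjusted p = 0.0475). Foxo1 was called with the stricter filter (adjusted p = 0.0415) and with DESeq2 (0.0425). The naive and quiescence regulators list had 1 higher call in the fit of all 19 libraries, 1 without GFP 1 and 1 without GFP 2.

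Genes of lymph node homing and tissue exit gave 1 higher, 8 lower and 2 not called of 11 tested among 12 members, with a median log2 fold of -1.73. Ccr7, the receptor that brings naive cells into lymph nodes, had 360.2 and 431 CPM in GFP libraries, against 4936, 4447 and 4744 CPM in naive libraries (log2 fold -3.56 ± 0.17, adjusted p = 0.000166). S1pr1, the receptor that lets cells leave lymph nodes, had 71.8 and 85.9 CPM in GFP libraries, against 1579, 1243 and 1581 CPM in naive libraries (log2 fold -4.21 ± 0.21, adjusted p = 0.000166). For both genes every GFP library lay under every naive library, and each was still transcribed in culture. Cxcr4 fell too (log2 fold -3.76), as did Selplg, a selectin ligand (log2 fold -1.73, adjusted p = 0.000430). The single rise was Itgb7, an integrin chain of gut homing, with 986 and 924 CPM in GFP libraries, against 505, 330.4 and 325 CPM in naive libraries (log2 fold 1.32 ± 0.22, adjusted p = 0.00421). The call of Itgb7 was lost in the fit of all 19 libraries (adjusted p = 0.0821).

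Transcription factors of effector and memory differentiation gave 14 higher, 1 lower and 8 not called of 23, with a median log2 fold of 2.40. Tbx21, which encodes T-bet, the driver of cytotoxic differentiation, had 79.8 and 62.4 CPM in GFP libraries, against 0.103, 0.120 and 0.111 CPM in naive libraries (log2 fold 9.30 ± 0.33, adjusted p = 0.000107). Eomes, its relative, had 34.6 and 30.6 CPM in GFP libraries, against 0.575, 0.862 and 0.863 CPM in naive libraries (log2 fold 5.41 ± 0.37, adjusted p = 0.000241). Naive cells were thus close to the detection limit for Tbx21, and both GFP libraries were over 30 CPM for both genes. Irf4, a sensor of receptor signal strength, had 69.8 and 65.1 CPM in GFP libraries, against 6.22, 6.80 and 9.78 CPM in naive libraries (log2 fold 3.15 ± 0.28, adjusted p = 0.000509). Bhlhe40, a regulator of cytokine production and mitochondria, had 253 and 235 CPM in GFP libraries, against 5.87, 3.33 and 3.92 CPM in naive libraries (log2 fold 5.81 ± 0.29, adjusted p = 0.000166). Runx3, the factor of the CD8 lineage, rose (log2 fold 3.73, adjusted p = 0.000288), as did Batf3 (7.56, 0.000281), Nfil3 (10.53, 0.000445), Hif1a (5.77, 0.000332) and Myc (2.40, 0.000210), the last being the growth regulator that T cells induce on activation. Hif1a, the oxygen-sensing factor, had 359 and 588 CPM in GFP libraries, against 5.71, 7.57 and 12.7 CPM in naive libraries, so no GFP value came near the naive range. Prdm1, which encodes BLIMP1, had 10.4 and 10.2 CPM in GFP libraries, against 0.0411, 4.21 and 5.18 CPM in naive libraries, where naive 1 lay far under the other naive libraries, and was not called (adjusted p = 0.337). Single libraries moved the log2 fold of Batf3 to 8.29 without naive 1 and Nfil3 to 9.93 without naive 1. At most 3 counts were left in that group for Nfil3 without naive 3. The effector and memory transcription factors list median was 3.04 without naive 1.

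Factors linked to T cell exhaustion moved both ways, giving 5 higher, 5 lower and 3 not called of 13 tested among 15 members, with a median log2 fold of 1.26. Beside Tox, Nr4a1, a nuclear receptor induced by receptor signals, had 7.14 and 4.85 CPM in GFP libraries, against 61.5, 54.8 and 69.7 CPM in naive libraries (log2 fold -3.36 ± 0.29, adjusted p = 0.000463). Its relative Nr4a2 had 2.03 and 4.16 CPM in GFP libraries, against 0, 0 and 0 CPM in naive libraries, at least 140.5-fold higher in GFP cells. Nfatc2, a calcium-regulated factor, had 132 and 102 CPM in GFP libraries, against 30.8, 16.1 and 25.7 CPM in naive libraries (log2 fold 2.28 ± 0.30, adjusted p = 0.00180). Both GFP libraries were below all 15 libraries of cells taken straight from mice for Tox and Nr4a1, a position that 2388 tested genes (16%) shared. The exhaustion-linked transcription factors list had 2 higher calls without GFP 2. It had 3 lower calls without GFP 2. The exhaustion-linked transcription factors list median was -0.77 with the stricter filter.

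**Figure D4:**
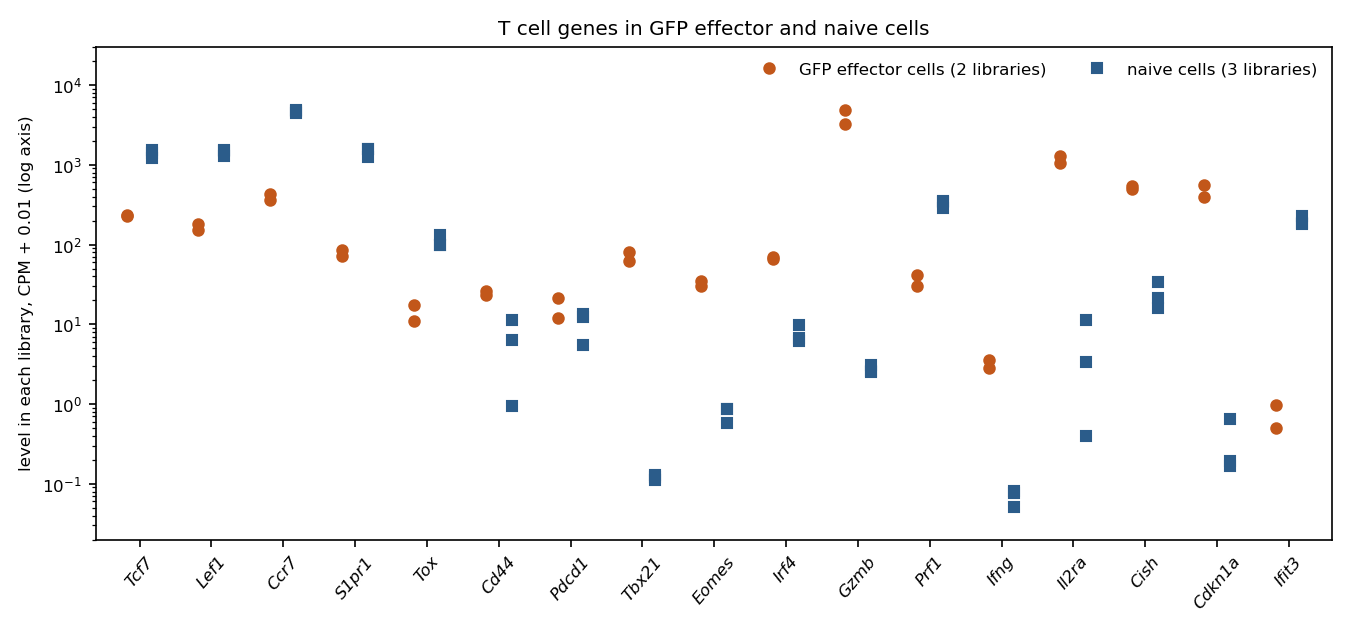
Level (CPM + 0.01, log axis) of T cell genes in every library, with GFP libraries as circles left of naive libraries as squares; each point is 1 library. Gzmb, Tbx21 and Il2ra lie higher in both GFP libraries, Tcf7, Ccr7, Prf1, Tox and Ifit3 lie lower, and Pdcd1 overlaps.

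Tested granzymes mostly rose while several other genes of the killing machinery were lower. Granzyme genes gave 4 higher, 0 lower and 1 not called of 5 tested among 10 members, with a median log2 fold of 4.06. Gzmb had 4826 and 3268 CPM in GFP libraries, against 3.06, 2.59 and 2.54 CPM in naive libraries (log2 fold 10.54 ± 0.27, adjusted p = 9.16e-05). Gzma, a tryptase-like granzyme, had 345 and 181 CPM in GFP libraries, against 12.7, 23.8 and 11.1 CPM in naive libraries (log2 fold 4.06 ± 0.45, adjusted p = 0.000969). Gzmc had 22.6 and 12.3 CPM in GFP libraries, against 0.493, 0.670 and 0.420 CPM in naive libraries (log2 fold 5.05 ± 0.49, adjusted p = 0.000608). In each case the lower GFP library was several times above the highest naive library. Gzmk, a granzyme of early memory cells, had 6.90 and 3.37 CPM in GFP libraries, against 0.780, 0.479 and 0.155 CPM in naive libraries (log2 fold 3.46, adjusted p = 0.0140). Other killing and granule genes gave 4 higher, 7 lower and 6 not called of 17 tested among 18 members, with a median log2 fold of -0.77. Prf1, which encodes the pore-forming perforin, had 42.1 and 30.4 CPM in GFP libraries, against 350.1, 289 and 340.0 CPM in naive libraries (log2 fold -3.16 ± 0.23, adjusted p = 0.000280), so it was lower in GFP cells and the groups did not overlap. Crtam, an adhesion receptor of cytotoxic cells, also fell, to 3.43 and 1.61 CPM in GFP libraries, against 103, 59.1 and 79.5 CPM in naive libraries (log2 fold -4.98). Fasl, the death ligand, rose to 21.3 and 11.9 CPM in GFP libraries, against 0.144, 0.0958 and 0.111 CPM in naive libraries (log2 fold 7.13 ± 0.52, adjusted p = 0.000286). Lamp1, a membrane protein of lytic granules, rose by log2 2.22 (adjusted p = 0.00225). Both GFP libraries lay below all 15 libraries from mice for 9 of the 17 tested members, Prf1 and Crtam among them. Of all tested genes, 16% shared that position. The call of Gzmk was lost without GFP 1 (adjusted p = 0.123). The log2 fold moved with 1 library left out, for Gzmk to 4.07 without naive 1 and Crtam to -5.61 without GFP 1. The other killing and granule genes list had 4 lower calls with library totals only, 4 without GFP 1 and 4 without GFP 2.

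Cytokine genes gave 13 higher, 1 lower and 2 not called of 16 tested among 22 members, with a median log2 fold of 3.34. Lta, which encodes lymphotoxin α, had 615 and 544 CPM in GFP libraries, against 48.3, 40.4 and 32.8 CPM in naive libraries (log2 fold 3.85 ± 0.21, adjusted p = 0.000167). Ltb, which encodes its membrane partner, had 1361 and 1264 CPM in GFP libraries, against 490.3, 463 and 260.4 CPM in naive libraries (log2 fold 1.71 ± 0.27, adjusted p = 0.00379). Tnf had 92.6 and 88.2 CPM in GFP libraries, against 9.18, 18.9 and 10.4 CPM in naive libraries (log2 fold 2.82 ± 0.36, adjusted p = 0.00156). These 3 genes of the TNF family were detected in naive cells and lay higher in both GFP libraries. Lif, of the IL-6 family, had 51.5 and 57.0 CPM in GFP libraries, against 0, 0 and 0.0442 CPM in naive libraries, a ratio of 3682 (95% interval 1019 to 30411). Ifng, the signature cytokine of killer cells, had 3.52 and 2.82 CPM in GFP libraries, against 0.0411, 0.0718 and 0.0664 CPM in naive libraries. Csf2, which encodes GM-CSF, had 2.13 and 1.95 CPM in GFP libraries, against 0, 0 and 0 CPM in naive libraries. Both were called higher, at levels of only a few CPM (adjusted p = 0.00131 for Ifng and 0.00446 for Csf2, which was at least 92.0-fold higher). Tnfsf11, which encodes RANKL, had 7.34 and 9.73 CPM in GFP cells and no counts in naive cells, at least 386-fold higher. Il2 was too low to test, and the single fall was Il16, a chemoattractant precursor, to 159.8 and 185 CPM in GFP libraries, against 1265, 949 and 1165 CPM in naive libraries (log2 fold -2.70 ± 0.19, adjusted p = 0.000279). Chemokine genes gave 2 higher, 2 lower and 4 not called of 8 tested among 10 members, with a median log2 fold of -1.63. Ccl3, an inflammatory chemokine, rose to 7.58 and 6.58 CPM in GFP libraries, against 0.370, 0.263 and 0.0664 CPM in naive libraries (log2 fold 4.92). Ccl4, another, rose to 17.9 and 12.4 CPM in GFP libraries, against 0.534, 1.22 and 0.863 CPM in naive libraries (log2 fold 4.12). Ccl5, with 2.67 and 1.77 CPM in GFP libraries, against 7.62, 10.9 and 3.25 CPM in naive libraries, and Xcl1, with 0.908 and 0.696 CPM in GFP libraries, against 0.657, 0.838 and 0.199 CPM in naive libraries, were not called. Ccl5 was called without naive 3 (adjusted p = 0.0182) and with DESeq2 (0.0182). The chemokines list had 0 lower calls without GFP 2. The cytokines list median was 2.63 in the fit of all 19 libraries. The chemokines list median was -2.61 without GFP 1. It was 4.04 with the stricter filter, which tested fewer members and left 1 higher and 0 lower calls.

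The α and β chains of the IL-2 receptor and most genes under STAT5 were higher in GFP cells. Il2ra, the α chain that gives the receptor high affinity, had 1294 and 1064 CPM in GFP libraries, against 0.390, 11.2 and 3.32 CPM in naive libraries (log2 fold 7.90 ± 1.24, adjusted p = 0.00346). Il2rb, the β chain, had 1660.1 and 1074 CPM in GFP libraries, against 589, 610.0 and 581 CPM in naive libraries (log2 fold 1.21, adjusted p = 0.00463). Both GFP libraries exceeded every naive library for both chains, and naive 2 was the highest naive library for Il2ra. Il2rg, the shared γ chain, fell to 601 and 635 CPM in GFP libraries, against 1379, 1447 and 1325 CPM in naive libraries (log2 fold -1.15 ± 0.14, adjusted p = 0.00131). IL-2 family and other cytokine receptors gave 11 higher, 7 lower and 7 not called of 25, with a median log2 fold of 0.29. Il12rb2, the inducible chain of the IL-12 receptor, had 116 and 119 CPM in GFP libraries, against 1.81, 1.70 and 3.69 CPM in naive libraries (log2 fold 5.62 ± 0.41, adjusted p = 0.000309). Il12rb1 rose too (log2 fold 2.79, adjusted p = 0.00119). Il6st, the shared chain gp130, fell to 37.1 and 54.2 CPM in GFP libraries, against 568, 377 and 804 CPM in naive libraries (log2 fold -3.67 ± 0.40, adjusted p = 0.000978), while Il27ra and Il21r fell by 2.40 and 1.66 on the log2 scale. Il7r, the survival receptor of naive cells, had 31.3 and 51.9 CPM in GFP libraries, against 61.9, 112 and 157 CPM in naive libraries (log2 fold -1.40, adjusted p = 0.0447). STAT5 feedback and target genes gave 13 higher, 2 lower and 2 not called of 17, with a median log2 fold of 1.48. Cish, a feedback inhibitor, had 543 and 501 CPM in GFP libraries, against 16.0, 33.5 and 21.4 CPM in naive libraries (log2 fold 4.47 ± 0.34, adjusted p = 0.000344). Of 2 more inhibitors of cytokine signalling, Socs1 had 243 and 287 CPM in GFP libraries, against 2.83, 4.45 and 2.23 CPM in naive libraries (adjusted p = 0.000181). Socs2 had 127 and 130.2 CPM in GFP libraries, against 0.164, 1.101 and 0.0442 CPM in naive libraries (adjusted p = 0.00135). Bcl2, the survival factor, had 654 and 821 CPM in GFP libraries, against 22.9, 41.2 and 27.9 CPM in naive libraries (log2 fold 4.59 ± 0.30, adjusted p = 0.000241). Bcl6, a repressor of effector differentiation, fell to 0.345 and 0.696 CPM in GFP libraries, against 8.91, 6.42 and 14.2 CPM in naive libraries (log2 fold -4.23 ± 0.65, adjusted p = 0.00309), and Stat5a itself fell by 1.59 on the log2 scale. The call of Il7r was lost with library totals only (adjusted p = 0.105), with no filter (0.0563), in the fit of all 19 libraries (0.253), without naive 2 (0.0677), without naive 3 (0.0622), without GFP 1 (0.251) and without GFP 2 (0.0993). Leaving out 1 library moved the log2 fold of Il2ra to 9.30 without naive 2 and Socs2 to 10.19 without naive 2. The IL-2 family and other cytokine receptors list had 4 lower calls with library totals only, 4 in the fit of all 19 libraries, 4 without naive 3, 4 without GFP 1 and 4 without GFP 2.

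Genes of the BCL2 family gave 5 higher, 3 lower and 8 not called of 16 tested among 17 members, with a median log2 fold of 0.26. Beside Bcl2, Bcl2l1, which encodes BCL-XL, had a log2 fold of 0.97 (adjusted p = 0.00688). Of the genes that promote death, Bbc3, which encodes PUMA, had 54.1 and 54.4 CPM in GFP libraries, against 0.205, 2.15 and 0.133 CPM in naive libraries (log2 fold 6.04 ± 1.15, adjusted p = 0.00711). Pmaip1, which encodes NOXA, rose too (log2 fold 3.27). Bmf fell to 1.33 and 0.482 CPM in GFP libraries, against 16.0, 16.2 and 18.3 CPM in naive libraries (log2 fold -4.21 ± 0.57, adjusted p = 0.00197). Bcl2l11, which encodes BIM, was not called, with 47.6 and 56.3 CPM in GFP libraries, against 30.9, 29.0 and 58.8 CPM in naive libraries. Targets of p53 gave 10 higher, 2 lower and 3 not called of 15 tested among 16 members, with a median log2 fold of 2.08. Cdkn1a, which encodes the kinase inhibitor p21, had 561 and 399 CPM in GFP libraries, against 0.185, 0.646 and 0.155 CPM in naive libraries (log2 fold 10.54 ± 0.61, adjusted p = 0.000195). Mdm2, the ubiquitin ligase of p53, had 123 and 136 CPM in GFP libraries, against 41.4, 25.8 and 44.3 CPM in naive libraries (log2 fold 1.81 ± 0.26, adjusted p = 0.00259). Phlda3, an inhibitor of AKT, had 36.1 and 37.8 CPM in GFP libraries, against 0, 0.287 and 0 CPM in naive libraries (log2 fold 8.63 ± 1.24, adjusted p = 0.00246). Of the members that fell, Fas, the death receptor, had 25.7 and 32.8 CPM in GFP libraries, against 56.7, 59.5 and 52.5 CPM in naive libraries (log2 fold -0.93, adjusted p = 0.0139). Sesn1, a stress sensor, had a log2 fold of -1.54. The call of Bcl2l1 was lost without GFP 1 (adjusted p = 0.0533) and without GFP 2 (0.0505). The call of Fas was lost with library totals only (adjusted p = 0.0696), in the fit of all 19 libraries (0.0526), without GFP 1 (0.130) and without GFP 2 (0.0533). Bcl2l11 was called without naive 3 (adjusted p = 0.0292). Without 1 library the log2 fold moved for Bbc3 to 8.28 without naive 2, Pmaip1 to 3.97 without naive 3, Bmf to -5.09 without GFP 1 and Cdkn1a to 11.42 without naive 2. At most 3 counts were left in that group for Phlda3 without naive 2. The BCL2 family list had 3 higher calls without GFP 1 and 3 without GFP 2. It had 1 lower call without GFP 1 and 1 without GFP 2.

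Inhibitory receptors gave 6 higher, 2 lower and 6 not called of 14, with a median log2 fold of 0.63. Pdcd1, which encodes PD1, had 21.3 and 12.0 CPM in GFP libraries, against 5.54, 12.3 and 13.5 CPM in naive libraries, and the groups overlapped (adjusted p = 0.310). Ctla4 had 104 and 142 CPM in GFP libraries, against 2.46, 5.08 and 3.25 CPM in naive libraries (log2 fold 5.104 ± 0.38, adjusted p = 0.000322). Havcr2, which encodes TIM3, had 21.8 and 15.1 CPM in GFP libraries, against 1.07, 0.0479 and 0 CPM in naive libraries (log2 fold 5.63, adjusted p = 0.0237). Lag3, Tigit and Entpd1, the last encoding CD39, were called higher at low levels of 3.91 and 1.802 CPM, 4.92 and 2.96 CPM and 11.8 and 8.87 CPM in GFP cells, against 0.0411, 0.0479 and 0 CPM, 0.0616, 0.120 and 0.0442 CPM and 2.34, 4.67 and 1.33 CPM in naive cells. Btla and Cd101 fell by 4.80 and 4.04 on the log2 scale. No member lay above all 15 libraries from mice in both GFP libraries, as 21.4% of tested genes did. The call of Havcr2 was lost without GFP 1 (adjusted p = 0.112) and without GFP 2 (0.0864). The call of Lag3 was lost without GFP 1 (adjusted p = 0.0622). The call of Entpd1 was lost without naive 1 (adjusted p = 0.0636), without GFP 1 (0.205) and without GFP 2 (0.126). Single libraries moved the log2 fold of Havcr2 to 5.02 without naive 3, Btla to -4.02 without GFP 1 and -6.48 without GFP 2 and Cd101 to -3.41 without GFP 1 and -5.12 without GFP 2. At most 3 counts were left in that group for Havcr2 without naive 1. The inhibitory receptors list had 3 higher calls without GFP 1. The inhibitory receptors list median was 1.31 without naive 1.

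Costimulatory receptors gave 6 higher, 6 lower and 5 not called of 17, with a median log2 fold of 0.30. Tnfrsf9, which encodes 4-1BB, had 668 and 518 CPM in GFP libraries, against 31.5, 17.05 and 14.0 CPM in naive libraries (log2 fold 4.85 ± 0.38, adjusted p = 0.000359). Tnfrsf4, which encodes OX40, had 75.7 and 60.0 CPM in GFP libraries, against 1.05, 2.61 and 0.221 CPM in naive libraries (log2 fold 5.73 ± 0.88, adjusted p = 0.00316). Slamf7 rose (log2 fold 4.38) while Slamf6, of the same family, fell to 20.8 and 26.1 CPM in GFP libraries, against 241, 265 and 272 CPM in naive libraries (log2 fold -3.46 ± 0.21, adjusted p = 0.000198). Cd27, of the TNF receptor family, fell by 1.77 on the log2 scale, Icos had a log2 fold of 0.96, and Cd28 was not called, with 127 and 130.0 CPM in GFP libraries, against 145, 166 and 172 CPM in naive libraries. NK-type receptors gave 2 higher, 4 lower and 6 not called of 12 tested among 16 members, with a median log2 fold of -1.48. Klrk1, which encodes NKG2D, had 8.05 and 6.92 CPM in GFP libraries, against 1.91, 1.17 and 1.13 CPM in naive libraries (log2 fold 2.43, adjusted p = 0.00706). Klrd1, which encodes CD94, fell to 30.5 and 17.8 CPM in GFP libraries, against 90.8, 186 and 74.4 CPM in naive libraries (log2 fold -2.27, adjusted p = 0.0119). Klrg1 was too low to test. Tyrobp and Fcer1g, 2 adaptor genes of myeloid and NK cells, fell (log2 folds -4.89 and -2.73), and the macrophage and dendritic cell sums given above were lower too. Tyrobp and Fcer1g are also on the NK cell list, which had 1 higher and 3 lower calls. The higher sum of that list in GFP cells was mostly Eomes. The part of myeloid or NK cells was not tested. The call of Icos was lost in the fit of all 19 libraries (adjusted p = 0.147). The call of Klrk1 was lost without GFP 1 (adjusted p = 0.0654) and without GFP 2 (0.0516). The call of Klrd1 was lost without GFP 2 (adjusted p = 0.0957). The call of Fcer1g was lost without GFP 1 (adjusted p = 0.0623) and without GFP 2 (0.0965). The log2 fold moved with 1 library left out, for Tnfrsf4 to 6.71 without naive 2 and Tyrobp to -5.51 without GFP 1. The NK-type receptors list had 5 higher calls in the fit of all 19 libraries, 0 without GFP 1 and 0 without GFP 2. It had 2 lower calls without GFP 1 and 1 without GFP 2. The costimulatory receptors list median was -0.09 with the stricter filter. The NK-type receptors list median was -0.04 with no filter, -0.07 in the fit of all 19 libraries and -0.67 without GFP 1.

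Chemokine receptors gave 3 higher, 4 lower and 6 not called of 13 tested among 16 members, with a median log2 fold of 0.76. Ccr4, a receptor of skin homing, had 44.0 and 39.7 CPM in GFP libraries, against 6.32, 6.85 and 5.15 CPM in naive libraries (log2 fold 2.78 ± 0.27, adjusted p = 0.000606), and lay above all 15 libraries from mice. Ccr9, a receptor of gut homing, fell to 15.8 and 39.4 CPM in GFP libraries, against 361, 362 and 493 CPM in naive libraries (log2 fold -3.87 ± 0.46, adjusted p = 0.00128). Cxcr3, the receptor of interferon-induced chemokines, had 117 and 114 CPM in GFP libraries, against 16.5, 78.7 and 11.1 CPM in naive libraries, where naive 2 lay far above the other naive libraries. It was not called (adjusted p = 0.132). Genes of tissue residency gave 4 higher, 1 lower and 5 not called of 10, with a median log2 fold of 0.81. Itgae, which encodes CD103 and is expressed by naive CD8 cells too, fell to 46.4 and 41.8 CPM in GFP libraries, against 528, 432 and 688 CPM in naive libraries (log2 fold -3.63 ± 0.27, adjusted p = 0.000310). Rgs1 and Ahr rose, Ahr with 4.03 and 3.71 CPM in GFP cells and no counts in naive cells, at least 175-fold higher. The call of Ccr4 was lost in the fit of all 19 libraries (adjusted p = 0.0724). The call of Ccr9 was lost in the fit of all 19 libraries (adjusted p = 0.0676). The call of Rgs1 was lost without GFP 2 (adjusted p = 0.0562). Cxcr3 was called in the fit of all 19 libraries (adjusted p = 0.0289), without naive 2 (0.00120) and with DESeq2 (0.0302). Leaving out 1 library moved the log2 fold of Ccr9 to -4.66 without GFP 2 and Rgs1 to 4.35 without naive 2. The chemokine receptors list had 5 higher calls without naive 2. The tissue residency list had 1 higher call without GFP 2. The chemokine receptors list median was -0.26 with the stricter filter and -0.01 without GFP 1. The tissue residency list median was -0.06 with the stricter filter.

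Transcripts of the receptor complex itself were mostly lower in GFP cells. T cell receptor complex and coreceptor genes gave 1 higher, 11 lower and 1 not called of 13, with a median log2 fold of -1.73. Cd3e had a log2 fold of -2.70 (adjusted p = 0.000273), Cd247, the ζ chain, -2.17 (0.000268), Cd8a -1.16 (0.00154) and Trac, the α chain constant region, -2.40 (0.00212). Cd5, which dampens receptor signals, had 23.9 and 23.4 CPM in GFP libraries, against 276, 208 and 221 CPM in naive libraries (adjusted p = 0.000216). Its relative Cd6 had 79.0 and 99.3 CPM in GFP libraries, against 996, 743 and 903 CPM in naive libraries (adjusted p = 0.000230). The exception was Ptprc, which encodes CD45, with 611 and 950.4 CPM in GFP libraries, against 246, 216 and 426 CPM in naive libraries (log2 fold 1.41, adjusted p = 0.0184). Proximal signalling genes gave 3 higher, 10 lower and 5 not called of 18, with a median log2 fold of -0.86. Lck, the kinase bound to CD8, had 1597 and 1374 CPM in GFP libraries, against 6468, 5829 and 5919 CPM in naive libraries (log2 fold -2.02 ± 0.15, adjusted p = 0.000284), and the adaptor gene Lat fell by 1.75 on the log2 scale. Fyn, a kinase related to Lck, had 85.5 and 125 CPM in GFP libraries, against 16.7, 22.2 and 22.4 CPM in naive libraries (log2 fold 2.37 ± 0.26, adjusted p = 0.000958), and Prkcq and Themis rose too (log2 folds 1.90 and 2.11). The call of Ptprc was lost in the fit of all 19 libraries (adjusted p = 0.0725), without naive 1 (0.0550) and without GFP 2 (0.138).

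Most cell cycle genes on the lists were higher in GFP cells, while the G1 list also held falls. Mitosis genes gave 27 higher, 0 lower and 1 not called of 28, with a median log2 fold of 6.22. Mki67, the proliferation antigen, had 15.4 and 25.3 CPM in GFP libraries, against 0.205, 0 and 0 CPM in naive libraries (log2 fold 8.12 ± 1.25, adjusted p = 0.00314). Top2a, the topoisomerase that untangles chromosomes, had 309 and 359 CPM in GFP libraries, against 1.19, 1.72 and 3.27 CPM in naive libraries (log2 fold 7.34 ± 0.48, adjusted p = 0.000230). Cdk1, the mitotic kinase, had 124 and 86.4 CPM in GFP libraries, against 3.12, 1.32 and 1.22 CPM in naive libraries (log2 fold 5.82 ± 0.49, adjusted p = 0.000431). No naive library came near either GFP library for any of these genes. Ccnb1, Cdc20, Plk1 and Bub1, genes of entry into and passage through mitosis, rose too, with log2 folds of 4.79, 3.82 and 5.07 for the first 3 and a rise of at least 1002-fold for Bub1, which had no counts in naive cells. The single member not called was Kif23, a kinesin of cell separation, with 41.0 and 45.3 CPM in GFP libraries, against 52.4, 53.6 and 42.9 CPM in naive libraries. DNA replication genes gave 25 higher, 0 lower and 5 not called of 30, with a median log2 fold of 1.99. Rrm2, the regulated subunit of ribonucleotide reductase, had 470.5 and 418 CPM in GFP libraries, against 10.6, 4.84 and 2.83 CPM in naive libraries (log2 fold 6.20 ± 0.56, adjusted p = 0.000538). Mcm10, a replication initiation factor, had 65.9 and 61.7 CPM in GFP libraries, against 0.0205, 0.0479 and 0.0221 CPM in naive libraries (log2 fold 10.97 ± 0.40, adjusted p = 0.000107). Its naive values lay under the limit that 3 counts allow, so the size of this fold rests on very few counts. Helicase subunits that naive cells already expressed changed less. Mcm6 had 718 and 829.8 CPM in GFP libraries, against 99.4, 71.2 and 74.5 CPM in naive libraries (log2 fold 3.26 ± 0.19, adjusted p = 0.000202). Mcm2 had 522 and 476 CPM in GFP libraries, against 321, 224 and 338 CPM in naive libraries (log2 fold 0.77, adjusted p = 0.0252). G1 cyclins and kinase inhibitors gave 12 higher, 4 lower and 2 not called of 18 tested among 19 members, with a median log2 fold of 1.59. Cdk6, a kinase of G1, had 320.3 and 299 CPM in GFP libraries, against 3.43, 3.76 and 1.02 CPM in naive libraries (log2 fold 6.83 ± 0.56, adjusted p = 0.000417), and Ccnd2 and Ccnd3, 2 D-type cyclins, rose by log2 1.36 and 0.97. Growth genes and the inhibitor Cdkn1a thus rose in the same libraries. The call of Mcm2 was lost without naive 1 (adjusted p = 0.0717), without GFP 1 (0.145) and without GFP 2 (0.102). Without 1 library the log2 fold moved for Cdk1 to 6.41 without naive 1, Rrm2 to 6.90 without naive 1 and Cdkn1a to 11.42 without naive 2. At most 3 counts were left in that group for Mki67 without naive 1. The mitosis list median was 6.84 without naive 1.

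The promoters of 3 mitosis genes are shown because words known from cell cycle promoters occur in this list. Promoters here are the 250 bases before the RefSeq start of each gene (GRCm38.p6, 27025 promoters, both strands searched, the first listed promoter used where a gene has several). The word CCAAT, of the NF-Y binding site, was in 20 of the 23 mitosis genes with a promoter (87.0%), against 34.5% of all promoters. TTTGAA, a form of the cell cycle homology region, was in 7 of 23 (30.4%), against 16.3%, and TTCGAA in 2 of 23 (8.70%), against 1.34%. Other lists reached similar shares: CCAAT was in 13 of 15 sterol promoters (86.7%) and 15 of 18 endoplasmic reticulum stress promoters (83.3%), and TTTGAA in 6 of 15 BCL2 family promoters (40.0%). In DNA replication promoters the E2F-type words TTTGGCGC and TTTCCCGC were in 3 and 2 of 25 (12.0% and 8.00%), against 0.437% and 0.929% of all. TTTGGCGC was also in 2 of 13 respiratory chain (15.4%) and 2 of 15 MHC class I promoters (13.3%), and TTTCCCGC in 2 of 15 G1 and 2 of 15 polycomb promoters (13.3% each) and 2 of 20 ribosome biogenesis promoters (10.0%). A match describes letters only. Cdk1 (chr10:69352913-69353162, minus strand) and Top2a (chr11:99024190-99024439, minus strand) hold both words and Ccnb1 (chr13:100786487-100786736, minus strand) holds CCAAT, with both words in capitals on either strand (CCAAT reads ATTGG and TTTGAA reads TTCAAA on the other strand):
Cdk1: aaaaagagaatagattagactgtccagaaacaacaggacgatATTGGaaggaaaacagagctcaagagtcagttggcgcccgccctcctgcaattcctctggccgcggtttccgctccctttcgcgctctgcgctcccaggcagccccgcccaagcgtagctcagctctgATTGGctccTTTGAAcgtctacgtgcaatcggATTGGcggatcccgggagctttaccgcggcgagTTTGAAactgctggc
Top2a: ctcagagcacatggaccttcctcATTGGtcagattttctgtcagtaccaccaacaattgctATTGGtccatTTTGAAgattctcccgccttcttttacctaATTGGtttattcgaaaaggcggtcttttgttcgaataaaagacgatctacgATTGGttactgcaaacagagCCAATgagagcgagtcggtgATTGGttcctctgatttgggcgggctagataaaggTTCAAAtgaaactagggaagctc
Ccnb1: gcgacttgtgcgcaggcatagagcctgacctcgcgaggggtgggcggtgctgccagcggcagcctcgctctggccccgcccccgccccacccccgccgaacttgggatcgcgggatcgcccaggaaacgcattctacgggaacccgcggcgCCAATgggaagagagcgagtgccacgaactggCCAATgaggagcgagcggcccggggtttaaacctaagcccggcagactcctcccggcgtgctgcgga

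Most glycolysis and amino acid transporter genes were higher in GFP cells, whereas genes of the pentose phosphate pathway and the mitochondrial cycle were divided. Glycolysis genes gave 16 higher, 3 lower and 4 not called of 23, with a median log2 fold of 1.34. Ldha, Pkm and Aldoa had log2 folds of 1.09, 1.503 and 1.13 (adjusted p = 0.00355, 0.00184 and 0.00477). Tpi1, triosephosphate isomerase, had 2074 and 1584 CPM in GFP libraries, against 138, 149 and 118 CPM in naive libraries (log2 fold 3.77 ± 0.19, adjusted p = 0.000166). Hk2, the inducible hexokinase, had 22.6 and 31.1 CPM in GFP libraries, against 1.19, 1.44 and 0.575 CPM in naive libraries (log2 fold 4.66 ± 0.49, adjusted p = 0.000812). The glucose transporter gene Slc2a1 was not called, with 202 and 178 CPM in GFP libraries, against 172, 136 and 167 CPM in naive libraries (adjusted p = 0.241). Ldhb, the isoform that favours pyruvate, fell to 9.17 and 8.16 CPM in GFP libraries, against 80.3, 75.1 and 57.5 CPM in naive libraries (log2 fold -3.02 ± 0.25, adjusted p = 0.000422). Pfkfb4 fell too (log2 fold -3.27). Pentose phosphate genes gave 2 higher, 4 lower and 3 not called of 9, with a median log2 fold of -0.69. G6pdx, the entry enzyme, had 133 and 128 CPM in GFP libraries, against 267, 213 and 250.3 CPM in naive libraries (log2 fold -0.89, adjusted p = 0.00648). Pgls, the next enzyme, had 131 and 120.0 CPM in GFP libraries, against 1.40, 3.28 and 0.951 CPM in naive libraries (log2 fold 6.07 ± 0.55, adjusted p = 0.000538). Amino acid transporters gave 10 higher, 2 lower and 2 not called of 14, with a median log2 fold of 2.18. Slc7a5, a chain of the large neutral amino acid transporter, had 285 and 292 CPM in GFP libraries, against 3.08, 3.71 and 4.58 CPM in naive libraries (adjusted p = 0.000145). Its partner Slc3a2 had 837 and 777 CPM in GFP libraries, against 187, 178 and 146 CPM in naive libraries (adjusted p = 0.000282). Slc1a5, a glutamine transporter, had 441 and 479.6 CPM in GFP libraries, against 11.4, 18.8 and 13.1 CPM in naive libraries (log2 fold 5.00 ± 0.27, adjusted p = 0.000181). All 3 genes lay above all 15 libraries from mice, as 21.4% of all tested genes did. The call of G6pdx was lost with library totals only (adjusted p = 0.0622), without GFP 1 (0.0608) and without GFP 2 (0.0761). Slc2a1 was called with library totals only (adjusted p = 0.0377). Single libraries moved the log2 fold of Pfkfb4 to -2.55 without GFP 1 and -4.67 without GFP 2 and Pgls to 6.71 without naive 2. The pentose phosphate pathway list had 2 lower calls with library totals only, 2 without GFP 1 and 0 without GFP 2. The amino acid transporters list had 0 lower calls in the fit of all 19 libraries, 0 without GFP 1 and 0 without GFP 2.

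Serine, one-carbon and nucleotide synthesis genes gave 13 higher, 1 lower and 6 not called of 20, with a median log2 fold of 1.102. Psat1, a serine synthesis enzyme, had 629 and 624 CPM in GFP libraries, against 74.2, 51.0 and 67.4 CPM in naive libraries (log2 fold 3.30 ± 0.20, adjusted p = 0.000198). Mthfd2, a mitochondrial folate enzyme, had 427 and 477 CPM in GFP libraries, against 87.5, 57.3 and 61.3 CPM in naive libraries (log2 fold 2.73 ± 0.22, adjusted p = 0.000370). Genes of the tricarboxylic acid cycle and glutaminolysis gave 5 higher, 8 lower and 7 not called of 20, with a median log2 fold of -0.10, a median that was 0.27 with library totals only. Sdha and Ogdh, 2 enzymes of the cycle, fell by 1.63 and 2.01 on the log2 scale. Pcx, which refills the cycle from pyruvate, rose (log2 fold 2.66). Respiratory chain genes gave 4 higher, 5 lower and 11 not called of 20, with a median log2 fold of -0.43. Uqcrfs1, a subunit of complex III, had 167 and 168 CPM in GFP libraries, against 14.7, 14.3 and 9.56 CPM in naive libraries (log2 fold 3.71). Cox5a, of complex IV, had 233 and 191 CPM in GFP libraries, against 14.4, 22.7 and 7.41 CPM in naive libraries (log2 fold 3.84). Uqcrc1, of complex III too, had 361 and 361 CPM in GFP libraries, against 906, 761 and 759.8 CPM in naive libraries (log2 fold -1.15 ± 0.15, adjusted p = 0.00171). Subunits of 1 complex thus moved in opposite directions. Sterol genes gave 9 higher, 6 lower and 7 not called of 22 tested among 23 members, with a median log2 fold of 0.33, with Sqle and Insig1 higher (log2 folds 1.87 and 3.63) and Dhcr7 lower (-2.06). Fatty acid genes gave 4 higher, 7 lower and 7 not called of 18, with a median log2 fold of -0.49. Elovl6, an elongase, and Acadl, an oxidation enzyme, rose (log2 folds 2.66 and 3.95), and Acadvl and Hadhb, of the same oxidation pathway, fell by 1.21 and 1.12 on the log2 scale. The tricarboxylic acid cycle and glutaminolysis list had 3 lower calls with library totals only, 3 without naive 1, 3 without GFP 1 and 3 without GFP 2. The respiratory chain list had 3 lower calls without GFP 2. The sterol synthesis and uptake list had 5 higher calls without GFP 1 and 5 without GFP 2. It had 3 lower calls with library totals only, 2 without GFP 1 and 2 without GFP 2. The fatty acid synthesis and oxidation list had 4 lower calls with library totals only, 4 without GFP 1 and 2 without GFP 2. The respiratory chain list median was 0.02 without naive 2. The sterol synthesis and uptake list median was -0.03 in the fit of all 19 libraries.

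Genes of the hypoxia-type response, which HIF1 drives, gave 12 higher, 0 lower and 3 not called of 15 tested among 16 members, with a median log2 fold of 1.78. Vegfa, the vascular growth factor, had 20.9 and 28.2 CPM in GFP libraries, against 0, 0 and 0 CPM in naive libraries, at least 1112-fold higher in GFP cells. Bnip3, a mitophagy receptor, had 256 and 259 CPM in GFP libraries, against 8.38, 7.28 and 7.70 CPM in naive libraries (log2 fold 5.06 ± 0.17, adjusted p = 0.000107). Egln3, an oxygen sensor that HIF itself induces, had 224 and 254 CPM in GFP libraries, against 9.20, 7.59 and 7.23 CPM in naive libraries (log2 fold 4.91 ± 0.20, adjusted p = 0.000145). Ero1l, an oxidase of the endoplasmic reticulum, had 391 and 480.4 CPM in GFP libraries, against 2.03, 1.58 and 0.973 CPM in naive libraries (log2 fold 8.16 ± 0.35, adjusted p = 0.000165). Both GFP libraries lay above all 15 libraries from mice for 10 of the 15 tested members, as they did for 21.4% of all tested genes. P4ha2, a collagen hydroxylase, had 91.1 and 63.5 CPM in GFP libraries, against 0.698, 0.0239 and 0.0664 CPM in naive libraries (log2 fold 8.16, adjusted p = 0.00152). The word ACGTG, the core of the HIF site, was in 7 of 13 promoters of the list (53.8%), against 16.6% of all, and in 9 of 22 glycolysis promoters (40.9%). Of these, 2 are shown, Bnip3 (chr7:138909507-138909756, minus strand) and P4ha2 (chr11:54100674-54100923, plus strand), with ACGTG on either strand in capitals. The log2 fold moved with 1 library left out, for P4ha2 to 10.67 without naive 1.
Bnip3: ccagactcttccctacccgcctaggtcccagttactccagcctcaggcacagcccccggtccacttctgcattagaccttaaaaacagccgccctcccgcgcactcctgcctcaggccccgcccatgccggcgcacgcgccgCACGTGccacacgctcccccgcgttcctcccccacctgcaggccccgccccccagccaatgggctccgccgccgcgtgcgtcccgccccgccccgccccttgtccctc
P4ha2: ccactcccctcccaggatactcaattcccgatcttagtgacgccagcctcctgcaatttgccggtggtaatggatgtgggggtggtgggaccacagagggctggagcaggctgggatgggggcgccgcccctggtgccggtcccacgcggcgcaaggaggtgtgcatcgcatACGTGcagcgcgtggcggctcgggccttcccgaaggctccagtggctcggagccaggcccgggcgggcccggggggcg

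Most aminoacyl-tRNA synthetase genes were higher in GFP cells, and most ribosomal protein genes were not called. Aminoacyl-tRNA synthetase genes gave 13 higher, 2 lower and 5 not called of 20, with a median log2 fold of 1.30. Gars, the glycine enzyme, had 594 and 687 CPM in GFP libraries, against 11.9, 13.9 and 10.4 CPM in naive libraries (log2 fold 5.74 ± 0.21, adjusted p = 0.000107). Eprs, the glutamate and proline enzyme, had a log2 fold of 3.82 (adjusted p = 0.000422). Qars, the glutamine enzyme, fell to 64.7 and 70.2 CPM in GFP libraries, against 192, 144 and 164 CPM in naive libraries (log2 fold -1.29 ± 0.19, adjusted p = 0.00244). Ribosome biogenesis genes gave 10 higher, 4 lower and 10 not called of 24, with a median log2 fold of 0.29. Ncl, an abundant nucleolar protein, had 554 and 964 CPM in GFP libraries, against 18.8, 40.6 and 58.8 CPM in naive libraries (log2 fold 4.27). Npm1, another, had 470.3 and 730.1 CPM in GFP libraries, against 74.4, 102 and 87.4 CPM in naive libraries (log2 fold 2.78). Gar1, of the RNA-modifying H/ACA particle, had 119.6 and 134 CPM in GFP libraries, against 2.59, 4.05 and 1.77 CPM in naive libraries (log2 fold 5.51 ± 0.39, adjusted p = 0.000273). Fbl, a nucleolar methyltransferase, was not called, with 139.9 and 164 CPM in GFP libraries, against 138, 194 and 123 CPM in naive libraries. Cytosolic ribosomal protein genes gave 0 higher, 2 lower and 22 not called of 24, with a median log2 fold of -0.57. That median was -0.08 without naive 2 and -0.82 without naive 3. For Rplp0 the values were 1629 and 1477 CPM in GFP libraries, against 2765, 3553 and 1995 CPM in naive libraries (log2 fold -0.83, adjusted p = 0.0399). For Rps3 they were 1088 and 1095 CPM in GFP libraries, against 1843, 3047 and 1369 CPM in naive libraries (adjusted p = 0.0688). Naive 2, which held the largest ribosomal share, was the highest library for both. The call of Rplp0 was lost with library totals only (adjusted p = 0.173), with no filter (0.0528), in the fit of all 19 libraries (0.0592), without naive 1 (0.0774), without GFP 1 (0.154) and without GFP 2 (0.218). Rps3 was called with the stricter filter (adjusted p = 0.0340), without naive 2 (0.0462), without naive 3 (0.0157) and with DESeq2 (0.0183). The ribosome biogenesis list had 1 lower call with library totals only, 2 in the fit of all 19 libraries, 2 without naive 1, 2 without GFP 1 and 1 without GFP 2. The cytosolic ribosomal proteins list had 3 higher calls without naive 2. It had 0 lower calls with library totals only, 0 with no filter, 0 without naive 1, 4 without naive 2, 8 without naive 3, 0 without GFP 1, 0 without GFP 2 and 5 with DESeq2.

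Genes of endoplasmic reticulum stress gave 13 higher, 2 lower and 4 not called of 19, with a median log2 fold of 1.43. Xbp1, the factor spliced on stress in this organelle, had 1255 and 1289 CPM in GFP libraries, against 6.73, 9.41 and 5.88 CPM in naive libraries (log2 fold 7.44 ± 0.27, adjusted p = 0.000121). Trib3, a target of ATF4, had 731 and 689 CPM in GFP libraries, against 16.0, 14.8 and 16.5 CPM in naive libraries (log2 fold 5.50 ± 0.16, adjusted p = 0.000100). Atf4, the translation-controlled stress factor, rose by log2 1.87 (adjusted p = 0.000538). Hspa5, which encodes the chaperone BiP, had 885 and 1061 CPM in GFP libraries, against 356, 329 and 456 CPM in naive libraries (log2 fold 1.36 ± 0.20, adjusted p = 0.00252), and Hsp90b1 and Creld2, a chaperone and a secreted stress protein, rose by log2 2.89 and 3.49. Calr, a lectin chaperone, had 640.4 and 551 CPM in GFP libraries, against 817, 793 and 932 CPM in naive libraries (log2 fold -0.50, adjusted p = 0.0445), although Canx, its membrane relative, rose (log2 fold 1.83, adjusted p = 0.00826). Both GFP libraries lay above all 15 libraries from mice for 14 of the 19 members, as they did for 21.4% of all tested genes. The endoplasmic reticulum stress element (CCAAT, any 9 bases, CCACG) was in 6 of 18 promoters of the list (33.3%), against 0.122% of all, among them that of Calr. The word TGATGNAA, of ATF4 and CHOP sites, was in 1 of 18 (5.56%), against 3.53%, and in 3 of 12 aminoacyl-tRNA synthetase promoters. The element is shown in capitals, on either strand, in Hspa5 (chr2:34771840-34772089, plus strand), Hsp90b1 (chr10:86705445-86705694, minus strand), Creld2 (chr15:88819396-88819645, plus strand) and Canx (chr11:50325674-50325923, minus strand). The call of Calr was lost with RLE size factors (adjusted p = 0.0604), with library totals only (0.586), with no filter (0.0890), without naive 1 (0.152), without naive 3 (0.161), without GFP 1 (0.133) and without GFP 2 (0.306). The call of Canx was lost without GFP 2 (adjusted p = 0.0662). The endoplasmic reticulum stress list had 0 lower calls with library totals only, 0 with no filter, 0 without naive 1, 0 without naive 3, 0 without GFP 1 and 0 without GFP 2.
Hspa5: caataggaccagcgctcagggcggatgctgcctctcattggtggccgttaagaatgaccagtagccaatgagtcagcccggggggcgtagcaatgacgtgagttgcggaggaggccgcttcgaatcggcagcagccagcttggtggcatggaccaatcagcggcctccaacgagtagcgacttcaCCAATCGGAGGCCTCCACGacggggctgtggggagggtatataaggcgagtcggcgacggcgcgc
Hsp90b1: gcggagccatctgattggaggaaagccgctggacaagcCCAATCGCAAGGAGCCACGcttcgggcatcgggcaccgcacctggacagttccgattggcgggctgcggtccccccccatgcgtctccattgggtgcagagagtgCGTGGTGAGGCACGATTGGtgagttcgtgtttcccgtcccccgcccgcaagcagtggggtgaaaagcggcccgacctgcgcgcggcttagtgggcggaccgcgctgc
Creld2: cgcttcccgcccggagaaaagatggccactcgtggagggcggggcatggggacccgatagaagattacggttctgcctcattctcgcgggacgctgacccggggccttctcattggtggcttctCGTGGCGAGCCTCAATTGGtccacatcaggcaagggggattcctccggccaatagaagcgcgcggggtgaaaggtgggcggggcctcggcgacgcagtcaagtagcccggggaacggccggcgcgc
Canx: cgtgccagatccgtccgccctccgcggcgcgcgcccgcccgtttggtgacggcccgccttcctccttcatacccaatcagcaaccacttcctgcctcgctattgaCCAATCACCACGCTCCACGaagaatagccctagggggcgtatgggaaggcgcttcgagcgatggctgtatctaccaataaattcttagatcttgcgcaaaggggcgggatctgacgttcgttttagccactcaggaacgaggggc

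Heat shock chaperones gave 8 higher, 2 lower and 4 not called of 14 tested among 17 members, with a median log2 fold of 0.81. Hsp90aa1, the inducible HSP90, had 201 and 289 CPM in GFP libraries, against 11.7, 14.1 and 12.4 CPM in naive libraries (log2 fold 4.27 ± 0.23, adjusted p = 0.000181). Hspa4, a nucleotide exchange factor, had 175 and 301 CPM in GFP libraries, against 6.00, 2.23 and 2.63 CPM in naive libraries (log2 fold 6.05 ± 0.52, adjusted p = 0.000456). Hspa8, the constitutive chaperone, was not called, with 979.9 and 1041 CPM in GFP libraries, against 1082, 789 and 722 CPM in naive libraries. Dnajb1 fell (log2 fold -1.75). Immediate early and stress genes gave 9 higher, 3 lower and 5 not called of 17, with a median log2 fold of 1.11. Jun, of the AP-1 factor, had 90.5 and 110.3 CPM in GFP libraries, against 1.499, 1.20 and 0.442 CPM in naive libraries (log2 fold 6.59 ± 0.51, adjusted p = 0.000344). Dusp1, a phosphatase of MAP kinases, had 70.1 and 65.5 CPM in GFP libraries, against 1.29, 1.17 and 2.06 CPM in naive libraries (log2 fold 5.49 ± 0.34, adjusted p = 0.000228). Zfp36, which destabilises cytokine mRNAs, fell to 57.9 and 55.2 CPM in GFP libraries, against 431, 335 and 338 CPM in naive libraries (log2 fold -2.69 ± 0.19, adjusted p = 0.000265), and Fos was not called, with 3.34 and 3.18 CPM in GFP libraries, against 8.29, 14.8 and 5.84 CPM in naive libraries (adjusted p = 0.0504). Fos was called with RLE size factors (adjusted p = 0.0453), without naive 3 (0.0213) and with DESeq2 (0.00695). The immediate early and stress genes list had 5 lower calls with DESeq2.

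Of all 51 lists, interferon-stimulated genes held the largest number of falls, though not the largest share. They gave 1 higher, 16 lower and 6 not called of 23, with a median log2 fold of -2.13, where 20.1% of all tested genes were called lower. The T cell receptor complex list had 11 lower of 13, and the macrophage list 8 of 9 tested. Ifit3, which binds viral RNA complexes, had 0.491 and 0.964 CPM in GFP libraries, against 179.5, 185 and 228 CPM in naive libraries (log2 fold -8.07 ± 0.41, adjusted p = 0.000166). Irf7, the amplifier of interferon production, had 24.2 and 18.6 CPM in GFP libraries, against 607, 672 and 851 CPM in naive libraries (log2 fold -5.05 ± 0.28, adjusted p = 0.000181). Isg15, the ubiquitin-like modifier, had 5.00 and 5.12 CPM in GFP libraries, against 60.7, 87.0 and 50.1 CPM in naive libraries (log2 fold -3.70 ± 0.34, adjusted p = 0.000538). All GFP values lay under every naive value for these genes, by more than an order of size for Ifit3 and Irf7. Usp18, which removes ISG15 and blocks the receptor, fell by 4.22 on the log2 scale, Oasl1 by 5.54 and Oas1a by 3.97. Ifit1 had 2.03 and 4.80 CPM in GFP libraries, against 23.7, 63.7 and 125 CPM in naive libraries, with a wide naive range (log2 fold -4.37, adjusted p = 0.00811). Gbp3, a GTPase of interferon γ responses, was the single member that rose, with 47.2 and 62.1 CPM in GFP libraries, against 14.1, 3.33 and 8.56 CPM in naive libraries (log2 fold 2.68, adjusted p = 0.00991). The macrophage and dendritic sums given above were lower in the same libraries, and their part in this list was not tested. The call of Ifit1 was lost in the fit of all 19 libraries (adjusted p = 0.0929) and without GFP 1 (0.0635). The call of Gbp3 was lost without GFP 2 (adjusted p = 0.0650). Leaving out 1 library moved the log2 fold of Ifit1 to -3.61 without naive 3 and -5.101 without GFP 2.

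The interferon response word (GAAA, any 2 bases, GAAA) was in 10 of 18 promoters of the list (55.6%), against 3.04% of all, with ribosomal protein genes the next highest list (4 of 16). To set falls beside the rise, 3 genes that fell and the single one that rose are shown, Ifit3 (chr19:34583279-34583528, plus strand), Isg15 (chr4:156200819-156201068, minus strand, 3 overlapping matches), Oas1a (chr5:120907526-120907775, minus strand) and Gbp3 (chr3:142559794-142560043, plus strand, the first of 2 listed promoters), with matches on either strand in capitals. Of the list members with the word, Gbp3 alone was called higher, while most were called lower and the rest were not called.
Ifit3: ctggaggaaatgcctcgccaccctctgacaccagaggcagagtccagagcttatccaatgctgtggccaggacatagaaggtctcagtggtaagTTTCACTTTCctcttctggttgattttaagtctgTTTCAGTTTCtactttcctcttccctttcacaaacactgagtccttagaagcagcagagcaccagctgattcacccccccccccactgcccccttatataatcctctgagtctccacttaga
Isg15: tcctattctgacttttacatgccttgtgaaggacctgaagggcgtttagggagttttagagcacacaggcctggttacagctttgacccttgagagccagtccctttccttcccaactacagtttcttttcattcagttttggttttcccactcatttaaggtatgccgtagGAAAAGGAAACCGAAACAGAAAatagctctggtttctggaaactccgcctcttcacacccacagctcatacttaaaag
Oas1a: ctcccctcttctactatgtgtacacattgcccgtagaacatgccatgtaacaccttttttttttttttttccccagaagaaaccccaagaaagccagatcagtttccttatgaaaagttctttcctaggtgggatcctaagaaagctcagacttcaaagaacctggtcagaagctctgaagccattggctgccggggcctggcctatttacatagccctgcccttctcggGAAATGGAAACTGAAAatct
Gbp3: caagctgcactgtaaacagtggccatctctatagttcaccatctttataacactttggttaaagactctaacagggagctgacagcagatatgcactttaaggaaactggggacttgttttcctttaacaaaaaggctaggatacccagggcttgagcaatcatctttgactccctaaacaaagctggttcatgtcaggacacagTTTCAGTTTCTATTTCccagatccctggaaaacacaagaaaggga

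Genes of MHC class I presentation gave 0 higher, 12 lower and 5 not called of 17, with a median log2 fold of -0.97. H2-K1, a classical class I heavy chain, had 2993 and 2848 CPM in GFP libraries, against 7817, 7518 and 6892 CPM in naive libraries (log2 fold -1.33 ± 0.13, adjusted p = 0.000677). H2-T23, a nonclassical one, had 311 and 311 CPM in GFP libraries, against 1368, 1241 and 953 CPM in naive libraries (log2 fold -1.92 ± 0.20, adjusted p = 0.000731). Reads of this family of near-identical genes may be split between members. Tap1, a peptide transporter subunit, had 452 and 427 CPM in GFP libraries, against 1005, 743 and 842 CPM in naive libraries (log2 fold -0.96, adjusted p = 0.00540). B2m, the light chain, was not called, with 3457 and 3545 CPM in GFP libraries, against 2093, 3557 and 1759.7 CPM in naive libraries. The call of Tap1 was lost without GFP 2 (adjusted p = 0.0654). B2m was called with library totals only (adjusted p = 0.0431) and without naive 2 (0.00786). The MHC class I and processing list had 6 lower calls without GFP 2.

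DNA methylation and polycomb genes gave 7 higher, 2 lower and 6 not called of 15, with a median log2 fold of 0.95. Ezh2, the methyltransferase of dividing cells, had 78.5 and 108 CPM in GFP libraries, against 3.96, 1.17 and 3.32 CPM in naive libraries (log2 fold 5.05 ± 0.52, adjusted p = 0.000782), and its relative Ezh1 had 78.4 and 87.9 CPM in GFP libraries, against 323, 208 and 376 CPM in naive libraries (log2 fold -1.85 ± 0.28, adjusted p = 0.00321), so the pair moved in opposite directions. Uhrf1, which guides maintenance methylation, had 246 and 238 CPM in GFP libraries, against 27.1, 15.1 and 17.2 CPM in naive libraries (log2 fold 3.63 ± 0.28, adjusted p = 0.000337). Dnmt1, the enzyme it guides, was not called (log2 fold 0.73, adjusted p = 0.0575). Glycosylation and galectin genes gave 5 higher, 2 lower and 5 not called of 12, with a median log2 fold of 1.24. Lgals3 had 529 and 269 CPM in GFP libraries, against 8.50, 6.66 and 4.31 CPM in naive libraries (log2 fold 5.95 ± 0.42, adjusted p = 0.000282). Lgals9 fell to 119.5 and 125 CPM in GFP libraries, against 699.6, 699.5 and 582 CPM in naive libraries (log2 fold -2.42 ± 0.17, adjusted p = 0.000265). Fut7 and St3gal4, enzymes that build selectin ligands, rose (log2 folds 4.01 and 2.98). St3gal1 fell by 3.37 on the log2 scale. Gcnt1, whose product changes on activation, had 15.4 and 8.57 CPM in GFP libraries, against 0, 0 and 1.86 CPM in naive libraries, and was not called (adjusted p = 0.112). Dnmt1 was called with library totals only (adjusted p = 0.0201), with the stricter filter (0.0447), in the fit of all 19 libraries (0.0330), without naive 3 (0.00820) and with DESeq2 (0.0325). Gcnt1 was called in the fit of all 19 libraries (adjusted p = 0.0167) and without naive 3 (0.00132). The DNA methylation enzymes and polycomb list had 4 higher calls without GFP 2.

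Set beside the 12 lesion libraries in a fit of all 19 libraries (18608 genes tested), GFP cells had 3805 genes higher (20.4%) and 3493 lower (18.8%) than late SV40-I cells. The counts were 2925 (15.7%) and 2854 (15.3%) against OT-I cells, 3129 (16.8%) and 3307 (17.8%) against marker-high cells, and 3267 (17.6%) and 3369 (18.1%) against marker-low cells. These 4 contrasts share the same GFP libraries, and without GFP 2 they had 2528, 1737, 1962 and 2054 genes higher and 2079, 1563, 1791 and 1847 lower, in the same order. Without GFP 1, 2120, 1574, 1795 and 1878 genes were lower. Both GFP libraries lay above all 15 libraries from mice for 3192 of the 14911 genes (21.4%) and below all 15 for 2388 (16%). In those 15 libraries Xist was at most 0.110 CPM and Kdm5d at least 0.281 CPM. GFP and lesion groups thus differ in sex-linked transcripts as well as in culture, transduction and sort. The parts of these cannot be told apart.

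Cell cycle genes split when set beside marker-high lesion cells. Rrm2 had 470.5 and 418 CPM in GFP cells, against 488 ± 159 CPM in marker-high cells (mean ± SD, n = 3; log2 fold -0.14, adjusted p = 0.813). Cdk1 had 124 and 86.4 CPM in GFP cells and 277 ± 135 CPM in marker-high cells (log2 fold -1.39, adjusted p = 0.0299). Ccnb1 had 98.7 and 94.2 CPM in GFP cells and 226 ± 105 CPM in marker-high cells (log2 fold -1.23, adjusted p = 0.0551). For these 3 genes the values of the groups lay within the same order of size, with Cdk1 called lower in GFP cells. Top2a had 309 and 359 CPM in GFP cells and 20.4 ± 5.98 CPM in marker-high cells (log2 fold 4.04, adjusted p = 0.000545). Ccna2, a cyclin of S phase and mitosis, had 130.2 and 137 CPM in GFP cells and 12.0 ± 5.26 CPM in marker-high cells (log2 fold 3.48, adjusted p = 0.000976). Kif11 had 82.3 and 96.4 CPM in GFP cells and 9.08 ± 3.09 CPM in marker-high cells (log2 fold 3.30, adjusted p = 0.0398). The last 3 genes were thus several times higher in GFP cells. The 12 of 28 mitosis genes that lay above all 15 libraries had a median transcript length of 4485 bases and a median GC content of 43.3%, against 3280.5 bases and 49.9% for the other 16 (longest GENCODE M21 transcript). Over all genes, those above all 15 libraries had a median GC content of 46.0% and those below 52.8%, with a transcript found for 88.0% and 84.7%, and the part of length or GC content in these differences was not tested.

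**Figure D5:**
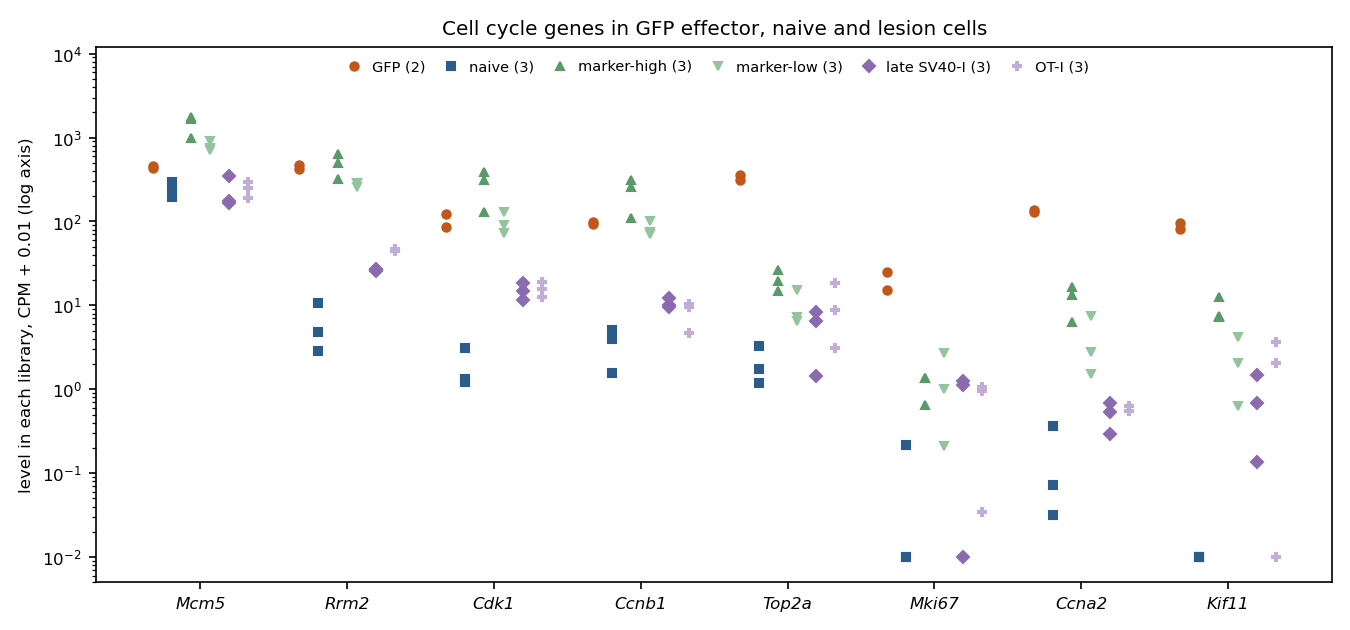
Level (CPM + 0.01, log axis) of cell cycle genes in every library of the GFP, naive and lesion groups, left to right within each gene; each point is 1 library. In marker-high cells Rrm2 lies near the GFP level and the means of Cdk1 and Ccnb1 lie above it. Top2a, Mki67, Ccna2 and Kif11 lie above every other group in both GFP libraries.

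Effector genes also stood on either side of lesion cells. Gzmb had 4826 and 3268 CPM in GFP cells, against 1429 ± 406 CPM in late SV40-I, 877 ± 111 CPM in OT-I, 3328 ± 846 CPM in marker-high and 354 ± 247 CPM in marker-low cells. In the order late SV40-I, OT-I, marker-high and marker-low, which is kept in what follows, its adjusted p was 0.00825, 0.000792, 0.619 and 2.70e-05. Prf1, at 42.1 and 30.4 CPM in GFP cells, lay under every lesion group, at 1332 ± 179.9, 1024 ± 206, 769 ± 298 and 429.8 ± 52.5 CPM, with log2 folds of -5.20, -4.82, -4.41 and -3.57 (adjusted p = 1.48e-06, 3.43e-06, 7.95e-06 and 2.14e-05). Pdcd1 had 21.3 and 12.0 CPM in GFP cells, against 4218 ± 1379, 107 ± 27.8, 2788 ± 719.8 and 549.9 ± 168 CPM, with log2 folds of -7.98, -2.68, -7.38 and -5.04 (adjusted p = 7.45e-07, 0.000327, 1.15e-06 and 7.52e-06). GFP cells thus held granzyme B transcripts at or above the level of the lesion groups, with fewer perforin and PD1 transcripts.

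Il2ra and Hif1a set both cultured groups apart. Il2ra, at 1294 and 1064 CPM in GFP cells, had 0.878 ± 0.339, 15.8 ± 4.36, 14.1 ± 10.8 and 32.9 ± 5.45 CPM in the 4 lesion groups, with log2 folds of 10.40, 6.22, 6.39 and 5.16 (adjusted p = 8.26e-06, 0.000203, 0.000175 and 0.000567). Hif1a, at 359 and 588 CPM in GFP cells, had 3.38 ± 0.988, 5.25 ± 2.47, 3.92 ± 2.61 and 2.60 ± 1.32 CPM there, with log2 folds of 7.13, 6.49, 6.92 and 7.50 (adjusted p = 3.10e-06, 8.34e-06, 8.45e-06 and 5.82e-06). The TOX-GFP cells held 1059 ± 20.8 CPM of Il2ra and 486 ± 8.74 CPM of Hif1a (mean ± SD, n = 2), so the values of both cultured groups lay far above those of every lesion group.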

How the data were processed

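RNA was read as paired 50-base HiSeq 4000 reads after SMART-Seq V4 amplification, per the labels' protocols. FastQC, STAR, featureCounts and DESeq2, with builds GRCm38 and mm10, are named per the submitters' processing notes, with no role given. The deposited files hold unnormalised fragment counts per gene name, made with featureCounts 1.6.2 on the GENCODE M17 annotation of GRCm38.p6 with no strand option, per the file headers. Reads of overlapping, antisense or near-identical genes therefore cannot be told apart.

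Counts were scaled by trimmed means (TMM) over all 19 libraries to CPM, and CPM divided by gene length gave RPKM. GFP and naive libraries were fitted alone with edgeR 4.0.16 (R 4.3.3, limma 3.58.1; filterByExpr, robust quasi-likelihood test, Benjamini-Hochberg adjusted p under 0.05 over 14911 genes), with a second test against a 2-fold change. The ± of a log2 fold is the size of the fold without an added count, divided by the square root of the F statistic. That fit had 3 residual degrees of freedom per gene. Lesion contrasts came from a fit of all 19 libraries. The scripts were checked on simulated counts. Alternatives were DESeq2 1.42.0, RLE size factors, library totals, no filter, a stricter filter (10 CPM in 2 libraries), all 19 libraries, a replicate block and each library left out. The filter settings, the fit of all 19 libraries and each left-out library also changed which genes were tested. List medians under them can therefore cover other members. Genes with no counts in a group are given as bounds from 3 counts over the group, and those with 1 to 3 counts as ratios with 95% intervals.

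The libraries, the 51 gene lists (783 genes) and the tests were chosen with earlier results of these data known. Named genes are Tox and Cd44, the lead genes of each list, the 2 called members of each list with the smallest p in each direction, the 10 largest rises and 10 largest falls among called genes without overlap and with at least 10 CPM, and the 10 most abundant called higher per length, 276 tested genes in all. A few genes that this rule names are not reported here, but are counted in their lists. A further 28 tested genes were named after their values were seen: Atf4, Batf3, Bbc3, Canx, Ccna2, Ccr9, Creld2, Eprs, Ero1l, Foxp1, Fut7, Hif1a, Hsp90b1, Il2rg, Il6st, Irf7, Kif23, Myc, Nfil3, Oas1a, Oasl1, P4ha2, Phlda3, Runx3, Selplg, Themis, Tnfsf11 and Tsc22d3. Cdh5, Tek, Pdgfra, Il2 and Klrg1 were named for being at or near 0.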

Additional observations from a re-analysis of the deposited data

How the results depend on the processing

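Genes higher and lower in GFP than in naive cells numbered 1916 to 3983 and 1475 to 3246 with 1 of the 5 libraries left out, and 1091 to 2807 and 563 to 1642 in the test against 2-fold, with the lowest counts without GFP 2. Against late SV40-I cells the counts with 1 GFP library left out were 2528 to 2944 higher and 2079 to 2120 lower, against OT-I cells 1737 to 2084 and 1563 to 1574, against marker-high cells 1962 to 2379 and 1791 to 1795, and against marker-low cells 2054 to 2513 and 1847 to 1878. With 1 GFP library, that library is assumed to vary like the naive group. Library totals gave 4457 higher and 2139 lower, and 955 lower in the test against 2-fold. DESeq2 called 3991 higher and 3574 lower, RLE size factors 3757 and 2997, no filter 3459 and 2604, all 19 libraries 3268 and 2789, and the stricter filter 2827 and 2713 of 8460 genes, fewer by construction.

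Replicate numbers 1 and 2 are shared by both groups, and deviations of same-numbered libraries correlated by 0.06 and -0.01, so the numbers were not taken as pairs. The replicate block called 3297 higher and 2625 lower. Changes of single genes and lists given in the Results leave this setting out. It lost 10 calls of named genes, among them Entpd1 (adjusted p = 0.0891), Ly6a (0.0681), Calr (0.137) and Tsix (0.0780). It gained 7, among them Fos (0.0488), Klf2 (0.0484), Dnmt1 (0.0120), Gcnt1 (0.00312) and Ccl5 (0.0472).

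Of 304 named genes, the call and direction stayed the same for 251 (without GFP 2) to 302 (RLE size factors) under any setting that kept nearly all of them, and 49 calls were lost without GFP 2 and 39 without GFP 1. Changes of sign were limited to genes that were not called, and the cause was not tested. With library totals these had log2 folds of 0.053 (Cd28), 0.18 (Cxcr6) and 0.18 (Kif23), with the stricter filter -0.047 (Fasn) and -0.077 (Fbl), and with the replicate block -0.095 (Fbl). With 1 library left out they ran from -0.031 to 0.74 for Cd4, -0.50 to 0.11 for Cxcr6, -0.44 to 0.40 for Fasn and -0.091 to 0.19 for Fbl.

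The groups differ in activation, culture, transduction, sort and sex-linked transcripts, which cannot be told apart. Levels under the limit that 3 counts allow were not detectable at this depth.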
